A study of Mus musculus with 22 samples.

Results

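The genes described here are 40 adipocyte and fat metabolism genes, a list of regulators, secreted proteins, lipid-handling proteins and enzymes known from fat cells, followed through postnatal back skin of K14-DN-Clim mice. The members are the probe sets that the array's platform annotation pairs with exactly 1 gene of the list. These were 44 probe sets for 33 of the 40 genes, out of 12422 probe sets without controls and 8251 genes in the whole table. A gene was followed by its brightest such probe set, and 27 of the 33 genes had that probe set among the brighter part of the table that was tested, as did 4900 genes of the whole table. The other 6 genes with a probe set (Acadvl, Pcx, Pparg, Agt, Ucp1 and Cd36) were too dim to be tested and are described after the rest. Cfd, Acsl1, Plin1, Adrb3, Acaca, Cpt1b and Ucp2 are not analysed here.

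The study compared whole back skin of DN-CLIM mice, which carry the K14-DN-Clim transgene, with that of WT littermates at postnatal days 6, 14 and 23 (P6, P14 and P23). All mice were of the CB6F1 strain. Each genotype had 5 arrays of P6, 3 of P14 and 3 of P23, which makes 22 arrays. The series places P6 and P14 in the first growth of hair follicles and P23 in the first telogen, the resting phase. The transgene blocks the CLIM (Ldb) cofactors, partners of LIM domain proteins, by a dominant-negative variant. Its keratin 14 promoter is active in basal keratinocytes, a cell type other than the adipocyte. The design text gives RNA from 3 to 5 transgenic mice and as many littermates per age, but the labels tie no array to a single mouse and give no sex. The p-values therefore measure the spread between arrays.

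White adipocytes store energy as triglyceride in a lipid droplet. Lipoprotein lipase frees fatty acids from circulating lipoproteins, the cell esterifies them with glycerol 3-phosphate, and a chain of lipases releases them again when fuel is needed. The nuclear receptor PPAR gamma and the C/EBP factors drive the formation of these cells, which also secrete hormones such as adiponectin, leptin and resistin. In mouse back skin a layer of dermal adipocytes lies under the dermis around the lower ends of the hair follicles, above a sheet of skeletal muscle, and its thickness is known to vary with the hair cycle.

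Values are MAS5 signals, a linear brightness per probe set that the authors had scaled so that every array had almost the same trimmed mean (500.25 to 500.34 with 2% trimmed at each end). A signal is thus relative to the bulk of its array, without the brightest and dimmest 2% of probe sets. The share of all signal in the 20 brightest probe sets was 6.25 to 8.96% on P6 arrays, 8.59 to 9.96% on P14 arrays and 4.34 to 5.04% on P23 arrays. Among the arrays DN-CLIM P6 replicate 5 correlated least with its group (0.923). In whole skin, fewer fat cells and less RNA of a gene per fat cell cannot be told apart. Of the 7 defining white adipocyte markers 5 were tested (Adipoq, Fabp4, Lep, Retn and Lipe), none of them was at 0 on any array, and all 5 are on the list described here. Their mean log2 signal was 10.28 ± 0.09 in DN-CLIM skin and 10.35 ± 0.21 in WT skin at P6 (SD, n = 5 each), 10.01 ± 0.13 and 9.87 ± 0.07 at P14, and 10.76 ± 0.25 and 10.80 ± 0.19 at P23 (SD, n = 3 each). The 5 markers did not move together. Between P6 and P14, 2 fell and 2 rose in DN-CLIM skin, and 2 fell and 0 rose in WT skin (limma, adjusted p under 0.05). These are 80% and 40% of the 5, against 26.8% and 20.8% of all tested probe sets in either direction. Between P14 and P23, 2 of the 5 rose and 0 fell in each genotype. That is 40%, all of them rises. Of all tested probe sets 54.3% in DN-CLIM skin and 54.2% in WT skin passed in either direction, and 27.1% and 27% as rises.

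The promoters of 4 genes described below are shown. Rbp4 changed in both age steps in both genotypes, as did several other genes such as Retn, Lpl and Car3. Adipoq had the smallest p-value in both age steps, Lep did not follow the other hormones, and Mgll had the smallest p-value between the genotypes. Each is the 250 bases before the gene's start, 5′ to 3′ on the gene's strand, from RefSeq on GRCm38.p6, with a match to a searched motif in capitals.
Rbp4, chr19:38124812-38125061, minus strand, with a C/EBP match in capitals: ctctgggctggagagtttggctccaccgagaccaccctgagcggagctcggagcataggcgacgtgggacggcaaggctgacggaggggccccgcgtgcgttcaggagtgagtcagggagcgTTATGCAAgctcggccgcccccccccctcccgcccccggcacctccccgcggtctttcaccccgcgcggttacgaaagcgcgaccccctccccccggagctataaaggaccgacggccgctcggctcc
Lep, chr6:29059971-29060220, plus strand, with a C/EBP match in capitals: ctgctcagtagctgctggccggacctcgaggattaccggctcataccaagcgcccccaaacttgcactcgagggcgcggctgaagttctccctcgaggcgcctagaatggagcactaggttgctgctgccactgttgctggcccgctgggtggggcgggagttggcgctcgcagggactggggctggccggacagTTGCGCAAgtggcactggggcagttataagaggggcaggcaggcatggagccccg
Mgll, chr6:88724162-88724411, plus strand, with an E-box in capitals: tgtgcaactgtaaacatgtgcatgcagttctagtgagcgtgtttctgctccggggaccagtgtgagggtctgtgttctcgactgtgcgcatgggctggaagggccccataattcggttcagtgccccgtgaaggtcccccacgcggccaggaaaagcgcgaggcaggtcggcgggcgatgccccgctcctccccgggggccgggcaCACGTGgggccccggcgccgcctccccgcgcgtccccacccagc
Adipoq, chr16:23146286-23146535, plus strand, with no match: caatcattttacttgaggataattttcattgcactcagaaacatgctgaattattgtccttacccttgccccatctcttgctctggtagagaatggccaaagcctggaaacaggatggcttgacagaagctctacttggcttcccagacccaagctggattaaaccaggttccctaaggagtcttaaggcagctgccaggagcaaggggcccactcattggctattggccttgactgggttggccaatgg

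The table of promoters held 43 windows for 31 of the 40 genes, and 4 motifs were searched on both strands of the 250 bases. The C/EBP motif TTGCNNAA was in 4 of the 43 windows (9.3%), those of Lep, Plin1, Pparg and Rbp4, against 9.56% of 32851 windows of all genes. The E-box CACGTG was in 3 windows (6.98%), those of Lipe, Mgll and Pcx, against 6.02% of all windows. The sterol response element TCACNCCAC was in 2 windows (4.65%), those of Acsl1 and Ucp2, against 1.05%. A direct repeat of AGGTCA with any 1 base between the copies, of the kind bound by PPAR gamma with its partner receptor, was in 0 member windows and in 0.033% of all windows. These are matches of letters in a short window. Acsl1, Plin1 and Ucp2 have no values here, and Pparg and Pcx were too dim to be tested.

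In both genotypes some fat genes fell and fewer rose between P6 and P14, with the split in DN-CLIM skin near even under quantile normalization, and most rose between P14 and P23. At P14 against P6, 10 of the 27 tested genes fell and 6 rose in DN-CLIM skin, and 12 fell and 3 rose in WT skin (limma, adjusted p under 0.05 over all 6211 tested probe sets). Over all tested probe sets, 14.7% fell and 12.1% rose in DN-CLIM skin, and 11.3% fell and 9.43% rose in WT skin (26.8% and 20.8% in all). The median log2 change of the 27 genes was -0.29 in DN-CLIM skin and -0.34 in WT skin, where the median of all tested probe sets lay within 0.01 of 0 in both. Between P14 and P23, 22 of the 27 genes rose and 1 fell in DN-CLIM skin, and 21 rose and 1 fell in WT skin. Over all tested probe sets the shares that rose were 27.1% in DN-CLIM skin and 27% in WT skin, with 27.2% and 27.1% lower, 54.3% and 54.2% in all. The median log2 change of the 27 genes was 0.92 in DN-CLIM skin and 1.03 in WT skin. The 2 age comparisons of a genotype share its P14 arrays, so a low P14 value enters both. Without DN-CLIM P14 replicate 2, 10 genes in place of 16 passed between P6 and P14 in DN-CLIM skin, and without DN-CLIM P6 replicate 5, 15 did. With each array centred on its median signal, 6 genes rose and 12 fell in DN-CLIM skin between P6 and P14, where rises made up 31.9% of the calls over all probe sets in place of 45%. With quantile normalization 7 rose and 8 fell there. With the same centring 18 rose and 2 fell in WT skin between P14 and P23, where rises made up 39.3% of all calls in place of 49.9% and the median of all tested probe sets was -0.13.

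**Figure D1:**
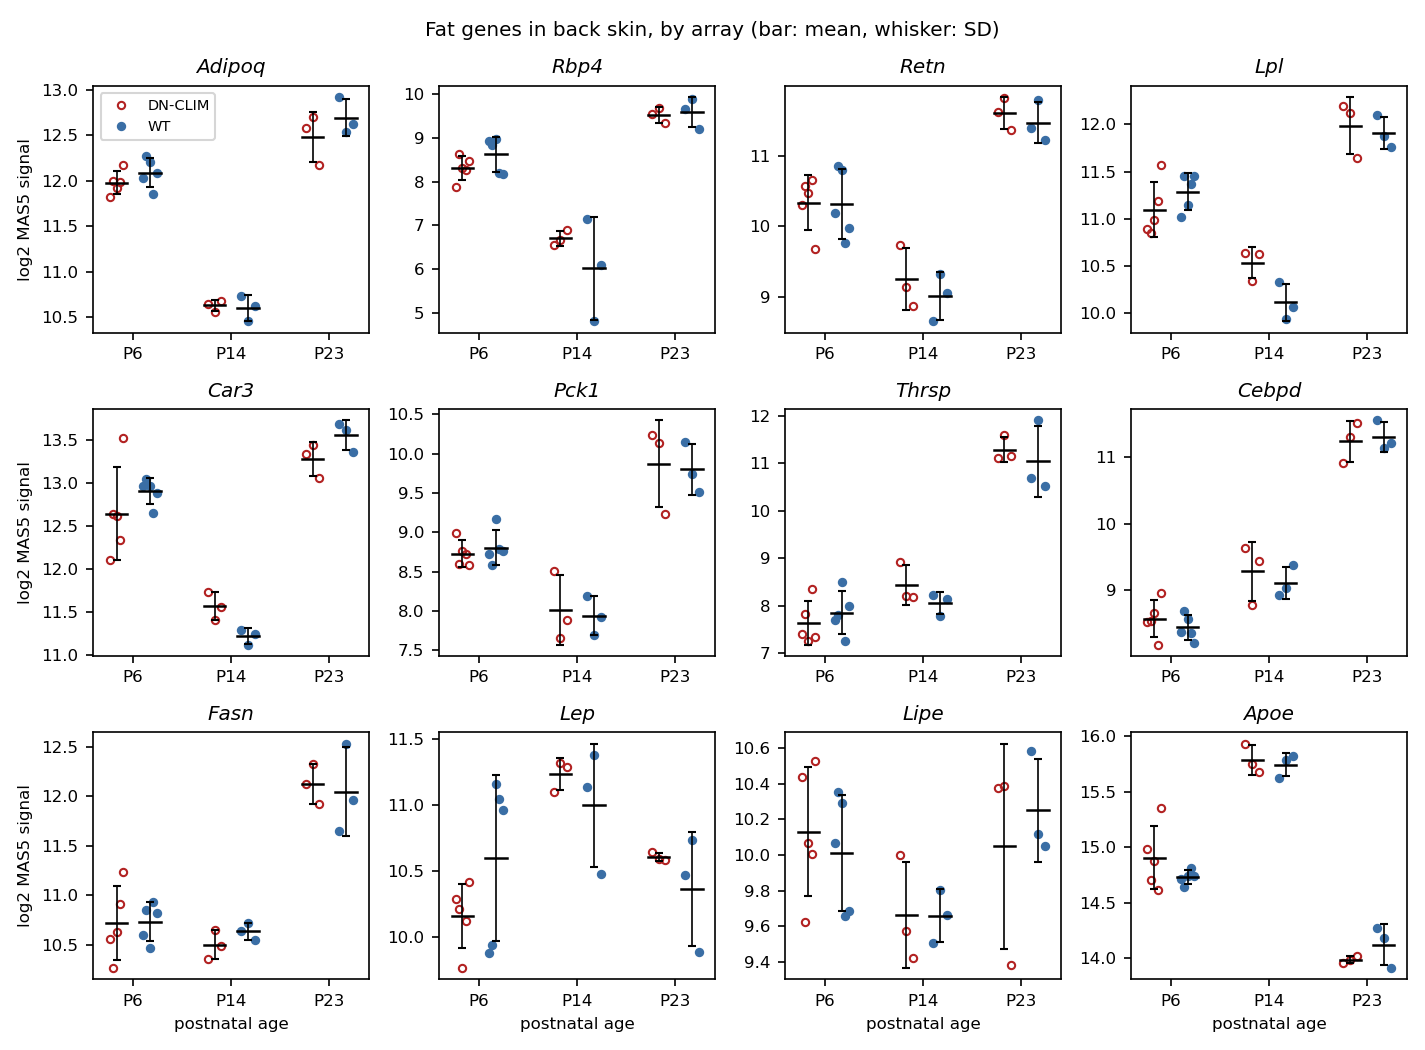
The plot by array shows log2 MAS5 signal of 12 fat genes at P6, P14 and P23, with open points for DN-CLIM arrays and filled points for WT arrays (5 each at P6, 3 each at P14 and P23), a bar for the mean and whiskers for the SD. Adipoq, Rbp4, Retn, Lpl, Car3 and Pck1 are lowest at P14, Thrsp and Cebpd are highest at P23, and Apoe runs the other way.

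**Figure D2:**
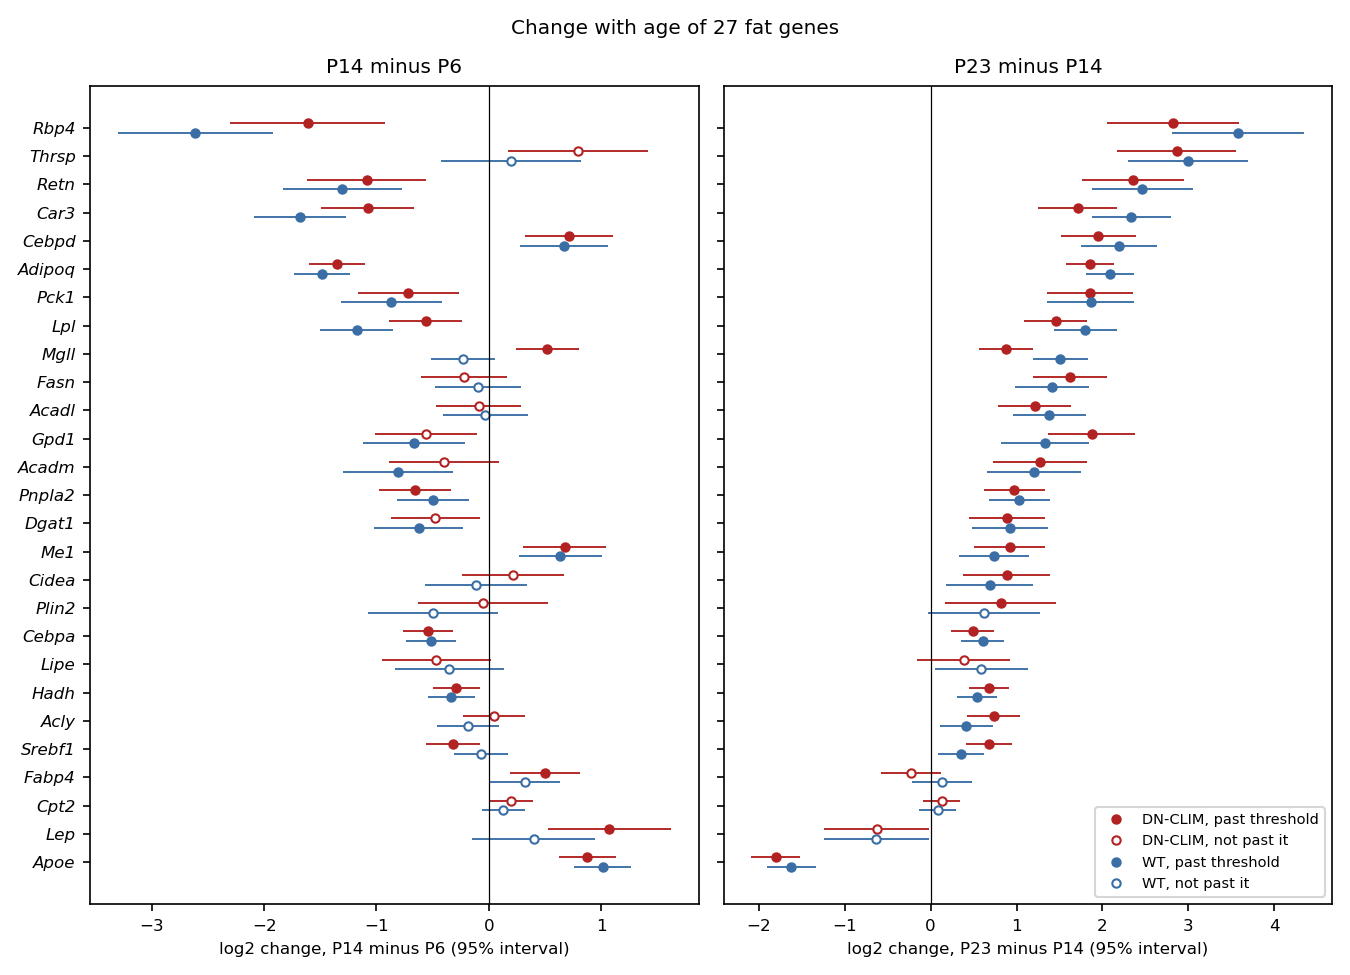
The plot of age changes gives the log2 change of each of the 27 tested genes between P6 and P14 (left) and between P14 and P23 (right) with its 95% interval, DN-CLIM above WT. Filled points passed the threshold in limma, which 16 of 27 genes in DN-CLIM skin and 15 in WT skin did on the left, and 23 and 22 on the right.

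Among the regulators, Cebpd and Thrsp were far higher at P23 than before, and Cebpa was lower at P14 than at P6 or P23. All 4 tested regulators rose between P14 and P23 in both genotypes. Over all tested probe sets 27.1% rose in DN-CLIM skin and 27% in WT skin in that step. The roles given here and below have 1 to 6 tested genes each, so their counts describe these genes only. Cebpd encodes C/EBP delta, an early factor of fat cell formation. At P6, Cebpd gave signals of 367, 372, 404, 291 and 497 in DN-CLIM skin, against 333, 414, 381, 329 and 295 in WT skin. At P14, Cebpd gave signals of 796, 441 and 691 in DN-CLIM skin, against 486, 522 and 664 in WT skin. At P23, Cebpd gave signals of 1917, 2519 and 2914 in DN-CLIM skin, against 2996, 2251 and 2379.7 in WT skin. Every P23 array was above every array of the earlier ages, and at P14 DN-CLIM replicate 2 lay within the range of the DN-CLIM arrays of P6. Cebpd changed by 0.71 (SE 0.19, limma adjusted p = 0.0083) between P6 and P14 in DN-CLIM skin and by 0.67 (SE 0.19, limma adjusted p = 0.015) in WT skin. Cebpd changed by 1.95 (SE 0.21, limma adjusted p = 9.4e-08) between P14 and P23 in DN-CLIM skin and by 2.19 (SE 0.21, limma adjusted p = 1.6e-08) in WT skin, a 3.87-fold and a 4.57-fold rise. The P14 rise did not pass without DN-CLIM P14 replicate 1 (0.54, limma adjusted p = 0.069) or without WT P14 replicate 3 (0.53, limma adjusted p = 0.1).

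Thrsp encodes Spot 14, a nuclear protein that promotes the transcription of lipogenic enzymes. At P6, Thrsp gave signals of 169, 226, 153, 327 and 163 in DN-CLIM skin, against 209, 225, 361, 153 and 254 in WT skin. At P14, Thrsp gave signals of 483, 294 and 289 in DN-CLIM skin, against 302, 221 and 281 in WT skin. At P23, Thrsp gave signals of 2233, 3093 and 2293 in DN-CLIM skin, against 1668, 3841 and 1479 in WT skin. The P23 signals were several times those of the earlier ages on every array, and WT replicate 2 was the highest of all. Thrsp changed by 2.86 (SE 0.33, limma adjusted p = 2.8e-07) between P14 and P23 in DN-CLIM skin and by 2.99 (SE 0.33, limma adjusted p = 1.4e-07) in WT skin, a 7.28-fold and a 7.96-fold rise. Between P6 and P14 the log2 change was 0.79 (limma adjusted p = 0.053) in DN-CLIM skin and 0.20 (limma adjusted p = 0.69) in WT skin, and the first of these passed without DN-CLIM P6 replicate 4 (0.97, limma adjusted p = 0.017).

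Cebpa encodes C/EBP alpha, which maintains the mature adipocyte and is also made by keratinocytes. At P6, Cebpa gave signals of 8726, 8425, 9219, 7571 and 6628 in DN-CLIM skin, against 8060.1, 8109, 8558, 7113 and 6661 in WT skin. At P14, Cebpa gave signals of 5006, 6127 and 5566 in DN-CLIM skin, against 5728, 5054 and 5370.0 in WT skin. At P23, Cebpa gave signals of 8071, 7682 and 7607 in DN-CLIM skin, against 9018, 8349 and 7293 in WT skin. All 6 arrays of P14 were below all arrays of P6 and P23. Cebpa changed by -0.54 (SE 0.11, limma adjusted p = 0.00088) between P6 and P14 in DN-CLIM skin and by -0.51 (SE 0.11, limma adjusted p = 0.0015) in WT skin. Cebpa changed by 0.49 (SE 0.12, limma adjusted p = 0.0017) between P14 and P23 in DN-CLIM skin and by 0.61 (SE 0.12, limma adjusted p = 0.00021) in WT skin. Srebf1 encodes SREBP-1, the transcription factor of fatty acid synthesis genes. At P6, Srebf1 gave signals of 1855, 1898, 1835, 1989 and 2309.5 in DN-CLIM skin, against 1709, 2016, 1728, 1589 and 1672 in WT skin. At P14, Srebf1 gave signals of 1323, 1659 and 1793 in DN-CLIM skin, against 1756, 1549 and 1658 in WT skin. At P23, Srebf1 gave signals of 2454, 2769 and 2379 in DN-CLIM skin, against 2039.8, 2510.3 and 1845 in WT skin. The 3 DN-CLIM arrays of P14 were below those of P6, while the WT arrays of these ages overlapped. Srebf1 changed by 0.68 (SE 0.13, limma adjusted p = 0.00014) between P14 and P23 in DN-CLIM skin and by 0.36 (SE 0.13, limma adjusted p = 0.024) in WT skin. Its decrease between P6 and P14 was -0.32 (limma adjusted p = 0.044) in DN-CLIM skin, and the change in WT skin was -0.07 (limma adjusted p = 0.72). The DN-CLIM decrease did not pass when any 1 of DN-CLIM P6 replicates 2, 4 and 5 or DN-CLIM P14 replicates 1 and 2 was left out (limma adjusted p = 0.052 to 0.28), nor did the WT rise to P23 without WT P14 replicate 2 or 3 or WT P23 replicate 2 (0.052 to 0.16). With quantile normalization the DN-CLIM decrease was -0.26 (limma adjusted p = 0.11), and with arrays centred on their median the WT rise was 0.23 (limma adjusted p = 0.18).

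Of the 5 tested genes of secreted proteins, 3 fell between P6 and P14 in each genotype and rose between P14 and P23, and Apoe did the opposite. Adipoq encodes adiponectin, the most abundant hormone of fat cells. At P6, Adipoq gave signals of 3629, 4088, 3888, 4043 and 4611 in DN-CLIM skin, against 4182, 4958, 4708, 3698 and 4352 in WT skin. At P14, Adipoq gave signals of 1605, 1508 and 1642 in DN-CLIM skin, against 1707, 1402 and 1577 in WT skin. At P23, Adipoq gave signals of 6100.3, 6662 and 4628 in DN-CLIM skin, against 7743, 5927 and 6323 in WT skin. The P14 arrays formed a narrow band below all others, and no array of one age overlapped another age of its genotype. Adipoq changed by -1.35 (SE 0.12, limma adjusted p = 3e-08) between P6 and P14 in DN-CLIM skin and by -1.48 (SE 0.12, limma adjusted p = 7e-09) in WT skin. Adipoq changed by 1.85 (SE 0.13, limma adjusted p = 1.8e-10) between P14 and P23 in DN-CLIM skin and by 2.09 (SE 0.13, limma adjusted p = 2.1e-11) in WT skin, a 3.62-fold and a 4.25-fold rise. Its promoter shown above held none of the 4 motifs in these 250 bases.

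Rbp4 encodes retinol binding protein 4, which carries vitamin A in blood and is made by liver and fat. At P6, Rbp4 gave signals of 236, 395, 320.2, 309 and 358 in DN-CLIM skin, against 488, 461, 504, 295 and 289 in WT skin. At P14, Rbp4 gave signals of 94.0, 102 and 118 in DN-CLIM skin, against 142, 27.9 and 68.3 in WT skin. At P23, Rbp4 gave signals of 746, 828 and 646 in DN-CLIM skin, against 815, 949 and 595 in WT skin. The P14 signals were the lowest of the 3 ages on every array, below the signal of 203.2 that marks the dimmer part of the table, and WT replicate 2 was lowest of all. Rbp4 changed by -1.61 (SE 0.33, limma adjusted p = 0.0011) between P6 and P14 in DN-CLIM skin and by -2.61 (SE 0.33, limma adjusted p = 5.2e-06) in WT skin. Rbp4 changed by 2.82 (SE 0.37, limma adjusted p = 1.5e-06) between P14 and P23 in DN-CLIM skin and by 3.58 (SE 0.37, limma adjusted p = 4.6e-08) in WT skin. Without WT P14 replicate 2 the WT changes of Rbp4 were -2.01 (limma adjusted p = 3e-05) and 2.97 (limma adjusted p = 7.2e-08). With 50 added to each signal before the log they were -1.89 and 2.77. The promoter of Rbp4 shown above has its C/EBP match at -128 to -121, counted back from the gene's start.

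Retn encodes resistin, a hormone that mouse adipocytes secrete. At P6, Retn gave signals of 1264, 1520.3, 1419, 1615 and 822 in DN-CLIM skin, against 1165, 1858, 1782, 868 and 1008 in WT skin. At P14, Retn gave signals of 853, 565 and 469 in DN-CLIM skin, against 402, 643 and 534 in WT skin. At P23, Retn gave signals of 3173, 3622 and 2640.0 in DN-CLIM skin, against 2710.4, 3553 and 2400.2 in WT skin. DN-CLIM replicate 1 of P14 reached the lowest DN-CLIM array of P6, which was replicate 5, and P23 stood above all. Retn changed by -1.09 (SE 0.25, limma adjusted p = 0.0033) between P6 and P14 in DN-CLIM skin and by -1.30 (SE 0.25, limma adjusted p = 0.00077) in WT skin. Retn changed by 2.36 (SE 0.28, limma adjusted p = 4.5e-07) between P14 and P23 in DN-CLIM skin and by 2.46 (SE 0.28, limma adjusted p = 2.2e-07) in WT skin.

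Lep encodes leptin, the hormone that reports fat stores to the brain, and it did not follow the other hormones. At P6, Lep gave signals of 1248, 1182, 869, 1109 and 1363 in DN-CLIM skin, against 941, 982, 2277, 2113 and 1996 in WT skin. At P14, Lep gave signals of 2183, 2548 and 2492 in DN-CLIM skin, against 2245, 2658 and 1421 in WT skin. At P23, Lep gave signals of 1595, 1543 and 1529 in DN-CLIM skin, against 1418, 1702 and 946 in WT skin. At P6 the WT arrays fell apart into replicates 1 and 2, which were near the DN-CLIM arrays, and replicates 3 to 5, which were near the P14 level. Lep changed by 1.07 (SE 0.26, limma adjusted p = 0.0047) between P6 and P14 in DN-CLIM skin, and its value in WT skin was 0.40 (SE 0.26, limma adjusted p = 0.32). The log2 change between P14 and P23 was -0.63 (limma adjusted p = 0.078) in DN-CLIM skin and -0.63 (limma adjusted p = 0.076) in WT skin. The WT value passed without WT P14 replicate 3 (-0.89, limma adjusted p = 0.023) and without WT P23 replicate 2 (-0.82, limma adjusted p = 0.043). With arrays centred on their median signal both passed, at -0.69 in DN-CLIM skin (limma adjusted p = 0.041) and -0.76 in WT skin (limma adjusted p = 0.026).

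Apoe encodes apolipoprotein E, a lipoprotein component made by many cell types, macrophages and adipocytes among them. At P6, Apoe gave signals of 32473, 26771, 30182, 25087 and 41829 in DN-CLIM skin, against 26988, 25601, 27432, 28790.5 and 27406 in WT skin. At P14, Apoe gave signals of 62637, 55134 and 52349.5 in DN-CLIM skin, against 50687, 56559 and 57838 in WT skin. At P23, Apoe gave signals of 15905, 16235 and 16602 in DN-CLIM skin, against 19808, 18666 and 15449.7 in WT skin. The P14 arrays were highest and the P23 arrays lowest, with no overlap between ages. Apoe changed by 0.88 (SE 0.12, limma adjusted p = 1.8e-05) between P6 and P14 in DN-CLIM skin and by 1.01 (SE 0.12, limma adjusted p = 2.7e-06) in WT skin. Apoe changed by -1.80 (SE 0.14, limma adjusted p = 3.7e-10) between P14 and P23 in DN-CLIM skin and by -1.62 (SE 0.14, limma adjusted p = 1.8e-09) in WT skin. With quantile normalization the decrease of Apoe was -0.48 (limma adjusted p = 0.00044) in DN-CLIM skin and -0.39 (limma adjusted p = 0.0028) in WT skin. Apoe was the 1 gene of the 27 that fell between P14 and P23.

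Of the 4 tested genes for uptake, binding and storage of fatty acids, Lpl and Car3 fell at P14 and rose at P23 in both genotypes. Lpl encodes lipoprotein lipase. At P6, Lpl gave signals of 1904, 1845, 2028, 2336 and 3029 in DN-CLIM skin, against 2069, 2806, 2272, 2642 and 2807 in WT skin. At P14, Lpl gave signals of 1586, 1296 and 1585 in DN-CLIM skin, against 1289, 982 and 1068 in WT skin. At P23, Lpl gave signals of 4691, 4472 and 3200.5 in DN-CLIM skin, against 4379, 3756 and 3476 in WT skin. The P14 arrays were below those of P6 and P23 in both genotypes, and at P14 each DN-CLIM array was above each WT array. Lpl changed by -0.56 (SE 0.16, limma adjusted p = 0.012) between P6 and P14 in DN-CLIM skin and by -1.18 (SE 0.16, limma adjusted p = 1.1e-05) in WT skin. Lpl changed by 1.46 (SE 0.18, limma adjusted p = 4.9e-07) between P14 and P23 in DN-CLIM skin and by 1.80 (SE 0.18, limma adjusted p = 2e-08) in WT skin. A second, dimmer tested probe set of Lpl gave -0.46 (limma adjusted p = 0.35) in DN-CLIM skin and -1.62 (limma adjusted p = 0.0018) in WT skin between P6 and P14, and 1.79 (limma adjusted p = 0.00052) and 2.30 (limma adjusted p = 3.4e-05) between P14 and P23. Without DN-CLIM P14 replicate 2 the DN-CLIM decrease was -0.47 (limma adjusted p = 0.079), and with P6 arrays 1 to 3 of each genotype alone it was -0.38 (limma adjusted p = 0.064).

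Car3 encodes carbonic anhydrase 3, abundant in adipocytes and in slow muscle. At P6, Car3 gave signals of 4406, 6394, 6284, 5185 and 11822 in DN-CLIM skin, against 8000.0, 8490.5, 7999, 6453 and 7562 in WT skin. At P14, Car3 gave signals of 3407, 2721 and 3022 in DN-CLIM skin, against 2517, 2230.5 and 2436 in WT skin. At P23, Car3 gave signals of 10364, 11122 and 8504 in DN-CLIM skin, against 13211, 12576 and 10543 in WT skin. At P6 DN-CLIM replicate 5 was well above the other 4 DN-CLIM arrays, and all P14 arrays were below all others. Car3 changed by -1.08 (SE 0.20, limma adjusted p = 0.0004) between P6 and P14 in DN-CLIM skin and by -1.68 (SE 0.20, limma adjusted p = 1.9e-06) in WT skin. Car3 changed by 1.71 (SE 0.22, limma adjusted p = 1.2e-06) between P14 and P23 in DN-CLIM skin and by 2.33 (SE 0.22, limma adjusted p = 1.2e-08) in WT skin. With quantile normalization these rises of Car3 were 2.31 (limma adjusted p = 3.2e-09) in DN-CLIM skin and 2.94 (limma adjusted p = 5.6e-11) in WT skin.

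Fabp4 encodes the adipocyte fatty acid binding protein and Plin2 a coat protein of lipid droplets, and neither passed as lower at P14. At P6, Fabp4 gave signals of 389, 379, 416, 497 and 546 in DN-CLIM skin, against 385, 362, 526, 470.5 and 416 in WT skin. At P14, Fabp4 gave signals of 625, 637 and 614 in DN-CLIM skin, against 557, 439.6 and 622 in WT skin. At P23, Fabp4 gave signals of 621, 537 and 463 in DN-CLIM skin, against 578, 647 and 539 in WT skin. The DN-CLIM arrays of P14 were above those of P6, the WT arrays of these ages overlapped, and P14 and P23 overlapped in both genotypes. Fabp4 changed by 0.50 (SE 0.15, limma adjusted p = 0.016) between P6 and P14 in DN-CLIM skin, and its value in WT skin was 0.32 (SE 0.15, limma adjusted p = 0.14). That change did not pass without DN-CLIM P14 replicate 2 (0.49, limma adjusted p = 0.058), and neither genotype passed between P14 and P23. At P6, Plin2 gave signals of 2708, 2263, 2445, 2299 and 851 in DN-CLIM skin, against 2231, 2085, 2358, 2783 and 2556 in WT skin. At P14, Plin2 gave signals of 1178, 2510.0 and 2319.8 in DN-CLIM skin, against 2182, 1675 and 1334 in WT skin. At P23, Plin2 gave signals of 2986, 3488 and 3591 in DN-CLIM skin, against 2877, 2536 and 2438 in WT skin. DN-CLIM P6 replicate 5 and DN-CLIM P14 replicate 1 were far below the rest of their groups. Plin2 changed by 0.82 (SE 0.31, limma adjusted p = 0.031) between P14 and P23 in DN-CLIM skin, and its value in WT skin was 0.62 (SE 0.31, limma adjusted p = 0.097). The WT value passed with arrays weighted by their quality (0.65, limma adjusted p = 0.0078) and in a fit on the 2 groups alone (limma adjusted p = 0.0086). It also passed with P6 arrays 1 to 3 of each genotype alone (limma adjusted p = 0.017). The DN-CLIM rise did not pass without DN-CLIM P14 replicate 1 (0.47, limma adjusted p = 0.22), DN-CLIM P23 replicate 2 (0.79, 0.075 by the same test) or DN-CLIM P23 replicate 3 (0.76, 0.083).

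Of the 6 tested genes of triglyceride synthesis and lipolysis, 5 rose between P14 and P23 in each genotype, all but Lipe. In the earlier step 2 fell and 1 rose in DN-CLIM skin, and 4 fell in WT skin. Pck1 encodes the cytosolic phosphoenolpyruvate carboxykinase, which supplies glycerol 3-phosphate to fat cells. At P6, Pck1 gave signals of 509, 386, 433, 424 and 383 in DN-CLIM skin, against 422, 384, 578, 442 and 433 in WT skin. At P14, Pck1 gave signals of 363, 201 and 236 in DN-CLIM skin, against 292, 207 and 244 in WT skin. At P23, Pck1 gave signals of 1210.3, 1122 and 603 in DN-CLIM skin, against 1138, 852 and 729.6 in WT skin. Each P14 array was below each P6 array, and each P23 array was above them. Pck1 changed by -0.72 (SE 0.22, limma adjusted p = 0.018) between P6 and P14 in DN-CLIM skin and by -0.87 (SE 0.22, limma adjusted p = 0.0066) in WT skin. Pck1 changed by 1.86 (SE 0.24, limma adjusted p = 1.3e-06) between P14 and P23 in DN-CLIM skin and by 1.86 (SE 0.24, limma adjusted p = 1.3e-06) in WT skin. The DN-CLIM decrease did not pass without DN-CLIM P14 replicate 2 (-0.54, limma adjusted p = 0.13) or replicate 3 (-0.65, limma adjusted p = 0.072).

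Gpd1 encodes the glycerol 3-phosphate dehydrogenase that makes the triglyceride backbone. At P6, Gpd1 gave signals of 1435, 1132, 1148, 1589 and 1363 in DN-CLIM skin, against 1459.5, 1284, 1968, 1885 and 1370.1 in WT skin. At P14, Gpd1 gave signals of 953, 868 and 880.3 in DN-CLIM skin, against 1565, 907 and 686 in WT skin. At P23, Gpd1 gave signals of 4077, 3803 and 2311 in DN-CLIM skin, against 2723, 2849 and 1997 in WT skin. At P14 WT replicate 1 lay within the P6 range, and the other arrays were below it. Gpd1 changed by 1.87 (SE 0.24, limma adjusted p = 1.3e-06) between P14 and P23 in DN-CLIM skin and by 1.33 (SE 0.24, limma adjusted p = 9e-05) in WT skin. Between P6 and P14 the value was -0.56 (limma adjusted p = 0.064) in DN-CLIM skin, and Gpd1 changed by -0.66 (limma adjusted p = 0.035) in WT skin. The WT decrease did not pass when any 1 of WT P6 replicates 3 and 4 or WT P14 replicates 2 and 3 was left out (limma adjusted p = 0.073 to 0.27), or in the fit without the filter on signal (limma adjusted p = 0.057).

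Pnpla2 encodes adipose triglyceride lipase, which takes the first fatty acid off stored fat. At P6, Pnpla2 gave signals of 4522, 3861, 4565, 3339 and 3677 in DN-CLIM skin, against 3586, 3043, 4601, 2928 and 2671 in WT skin. At P14, Pnpla2 gave signals of 2838, 2583 and 2174 in DN-CLIM skin, against 2268, 2069.7 and 2727 in WT skin. At P23, Pnpla2 gave signals of 5113, 5144 and 4583 in DN-CLIM skin, against 5789.6, 4424 and 4274 in WT skin. Each DN-CLIM array of P14 was below each DN-CLIM array of P6, and of the WT arrays of P14 replicate 3 was above the lowest WT array of P6. Pnpla2 changed by -0.66 (SE 0.15, limma adjusted p = 0.0033) between P6 and P14 in DN-CLIM skin and by -0.50 (SE 0.15, limma adjusted p = 0.024) in WT skin. Pnpla2 changed by 0.97 (SE 0.17, limma adjusted p = 5.9e-05) between P14 and P23 in DN-CLIM skin and by 1.03 (SE 0.17, limma adjusted p = 2.9e-05) in WT skin. The WT decrease did not pass when any 1 of WT P6 replicates 1 and 3 or WT P14 replicates 1 and 2 was left out (limma adjusted p = 0.051 to 0.13).

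Mgll encodes monoglyceride lipase, the last enzyme of fat breakdown, and it had the largest log2 difference between the genotypes at P14 of the 27 genes. At P6, Mgll gave signals of 1067, 799, 802, 866 and 1044 in DN-CLIM skin, against 805, 1172, 985, 857 and 833 in WT skin. At P14, Mgll gave signals of 1362, 1524 and 1068 in DN-CLIM skin, against 839.7, 809 and 714 in WT skin. At P23, Mgll gave signals of 2196, 2428 and 2564 in DN-CLIM skin, against 2092, 2443 and 2199 in WT skin. At P14 each DN-CLIM array was above each WT array, and at P23 all arrays were higher. Mgll changed by 0.52 (SE 0.14, limma adjusted p = 0.0074) between P6 and P14 in DN-CLIM skin, and its value in WT skin was -0.23 (SE 0.14, limma adjusted p = 0.26). Mgll changed by 0.88 (SE 0.15, limma adjusted p = 5.1e-05) between P14 and P23 in DN-CLIM skin and by 1.51 (SE 0.15, limma adjusted p = 3e-08) in WT skin. The DN-CLIM rise at P14 did not pass without DN-CLIM P14 replicate 2 (0.41, limma adjusted p = 0.066). A second probe set of Mgll was too dim to be tested and did not show these differences. Its mean log2 signal at P14 was 6.88 in DN-CLIM skin and 6.86 in WT skin. At P23 it was lower, at 5.84 and 5.08.

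Lipe, which encodes hormone-sensitive lipase, did not pass in either age step. Its log2 change was -0.47 (limma adjusted p = 0.14) in DN-CLIM skin and -0.35 (limma adjusted p = 0.31) in WT skin between P6 and P14. Between P14 and P23 Lipe was at 0.38 (limma adjusted p = 0.22) in DN-CLIM skin, where it passed without DN-CLIM P23 replicate 3 (0.72, limma adjusted p = 0.022), and at 0.59 (limma adjusted p = 0.06) in WT skin. The WT value of Lipe passed with arrays weighted by their quality (0.61, limma adjusted p = 0.037) and in a fit on the 2 groups alone (limma adjusted p = 0.0081). It also passed with P6 arrays 1 to 3 of each genotype alone (limma adjusted p = 0.045). Dgat1, which encodes the enzyme of the last step of triglyceride synthesis, changed by 0.89 (limma adjusted p = 0.0013) between P14 and P23 in DN-CLIM skin and by 0.92 (limma adjusted p = 0.00089) in WT skin. Dgat1 in the earlier step was at -0.47 (limma adjusted p = 0.068) in DN-CLIM skin and changed by -0.63 (limma adjusted p = 0.022) in WT skin. The DN-CLIM value passed without DN-CLIM P6 replicate 4 (-0.58, limma adjusted p = 0.027) or DN-CLIM P14 replicate 2 (-0.72, limma adjusted p = 0.013), and the WT decrease did not pass without WT P6 replicate 3 or WT P14 replicate 2 or 3 (limma adjusted p = 0.055 to 0.11). A second probe set of Dgat1 was too dim to be tested and did not follow these changes in WT skin. Its mean log2 signal at P6, P14 and P23 was 6.505, 6.798 and 6.374 in WT skin, and 6.363, 6.219 and 7.142 in DN-CLIM skin.

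All 3 tested genes of fatty acid synthesis rose between P14 and P23 in both genotypes, and none fell between P6 and P14. Fasn encodes fatty acid synthase. At P6, Fasn gave signals of 1502, 1231, 1584, 1930.5 and 2412 in DN-CLIM skin, against 1553, 1844, 1410.2, 1949 and 1813 in WT skin. At P14, Fasn gave signals of 1312, 1605 and 1438 in DN-CLIM skin, against 1599, 1683 and 1493 in WT skin. At P23, Fasn gave signals of 4467, 5153 and 3869.8 in DN-CLIM skin, against 3203, 5924 and 3997 in WT skin. The P6 and P14 arrays overlapped, and all P23 arrays were above them. Fasn changed by 1.63 (SE 0.21, limma adjusted p = 9.3e-07) between P14 and P23 in DN-CLIM skin and by 1.41 (SE 0.21, limma adjusted p = 5.9e-06) in WT skin. Me1 encodes malic enzyme, a source of NADPH for this synthesis, and was the 1 gene of the 3 that rose in both steps. At P6, Me1 gave signals of 883, 929.7, 913, 1103 and 1165 in DN-CLIM skin, against 975, 1091, 899.6, 1133 and 1069 in WT skin. At P14, Me1 gave signals of 1310.0, 1919 and 1583 in DN-CLIM skin, against 1848, 1537 and 1450.0 in WT skin. At P23, Me1 gave signals of 3498, 2737 and 2831 in DN-CLIM skin, against 1735, 3663 and 3010.1 in WT skin. The P14 arrays were above those of P6, and at P23 WT replicate 1 stayed within the P14 range. Me1 changed by 0.68 (SE 0.18, limma adjusted p = 0.0077) between P6 and P14 in DN-CLIM skin and by 0.64 (SE 0.18, limma adjusted p = 0.013) in WT skin. Me1 changed by 0.92 (SE 0.20, limma adjusted p = 0.00047) between P14 and P23 in DN-CLIM skin and by 0.74 (SE 0.20, limma adjusted p = 0.0033) in WT skin. The P14 rise did not pass without DN-CLIM P14 replicate 2 (0.54, limma adjusted p = 0.065) or without WT P14 replicate 1 (0.54, limma adjusted p = 0.082).

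Acly encodes ATP citrate lyase, which makes acetyl-CoA for fatty acid and sterol synthesis. At P6, Acly gave signals of 2814, 2939.9, 2852, 3007 and 2395 in DN-CLIM skin, against 3045, 3223, 2672, 2802 and 3325 in WT skin. At P14, Acly gave signals of 2497, 2999 and 3196 in DN-CLIM skin, against 2699, 2732 and 2494 in WT skin. At P23, Acly gave signals of 4327, 5872 and 4355 in DN-CLIM skin, against 2710.1, 4291 and 3754 in WT skin. The DN-CLIM arrays of P23 were above all of P6 and P14 and above all WT arrays of P23, of which replicate 1 stayed at the P14 level. Acly changed by 0.74 (SE 0.15, limma adjusted p = 0.00025) between P14 and P23 in DN-CLIM skin and by 0.42 (SE 0.15, limma adjusted p = 0.022) in WT skin. The WT rise did not pass without WT P14 replicate 3, WT P23 replicate 2 or WT P23 replicate 3 (limma adjusted p = 0.072 to 0.15), or with arrays centred on their median (0.29, limma adjusted p = 0.12).

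Of the 4 tested genes of fatty acid oxidation, 3 rose between P14 and P23 in each genotype, and Cpt2 did not pass. Acadl and Acadm encode the long-chain and medium-chain acyl-CoA dehydrogenases, the first enzymes of the mitochondrial cycle. At P6, Acadl gave signals of 285, 262, 198, 295 and 366 in DN-CLIM skin, against 212, 250.1, 233, 249 and 287 in WT skin. At P14, Acadl gave signals of 331, 213 and 248 in DN-CLIM skin, against 207, 215 and 309.7 in WT skin. At P23, Acadl gave signals of 643, 573 and 591 in DN-CLIM skin, against 628, 563 and 690.1 in WT skin. The first 2 ages overlapped, and P23 was above both. Acadl changed by 1.21 (SE 0.20, limma adjusted p = 3.3e-05) between P14 and P23 in DN-CLIM skin and by 1.38 (SE 0.20, limma adjusted p = 6.6e-06) in WT skin. At P6, Acadm gave signals of 2072, 2515, 2188, 1972 and 853 in DN-CLIM skin, against 1968, 2166, 1750.1, 1681 and 2155 in WT skin. At P14, Acadm gave signals of 1712, 1327 and 1125 in DN-CLIM skin, against 1259.7, 1012 and 1050.4 in WT skin. At P23, Acadm gave signals of 3798, 3348 and 2807 in DN-CLIM skin, against 3091, 2412 and 2204 in WT skin. DN-CLIM P6 replicate 5 was below all other arrays, and without it the P14 arrays were below those of P6 within each genotype. Acadm changed by 1.27 (SE 0.26, limma adjusted p = 0.00034) between P14 and P23 in DN-CLIM skin and by 1.21 (SE 0.26, limma adjusted p = 0.00056) in WT skin. Between P6 and P14 the value was -0.40 (limma adjusted p = 0.22) in DN-CLIM skin, and it passed without DN-CLIM P6 replicate 5 (-0.67, limma adjusted p = 0.0019). Acadm changed by -0.81 (limma adjusted p = 0.017) in WT skin between P6 and P14, and this did not pass without WT P14 replicate 2 (-0.75, limma adjusted p = 0.074) or replicate 3 (-0.78, limma adjusted p = 0.067).

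Hadh encodes the short-chain hydroxyacyl-CoA dehydrogenase of the same cycle. At P6, Hadh gave signals of 1297, 1283, 1464, 1268 and 1434 in DN-CLIM skin, against 1242, 1628, 1249, 1409 and 1189.8 in WT skin. At P14, Hadh gave signals of 1062, 1092 and 1151 in DN-CLIM skin, against 1130.0, 1077 and 973 in WT skin. At P23, Hadh gave signals of 1669, 1893 and 1753 in DN-CLIM skin, against 1643, 1416 and 1564 in WT skin. The P14 arrays were below those of P6 and of P23 in both genotypes. Hadh changed by 0.68 (SE 0.11, limma adjusted p = 2.6e-05) between P14 and P23 in DN-CLIM skin and by 0.54 (SE 0.11, limma adjusted p = 0.00035) in WT skin. Hadh changed by -0.29 (limma adjusted p = 0.036) between P6 and P14 in DN-CLIM skin and by -0.34 (limma adjusted p = 0.021) in WT skin. This decrease did not pass when any 1 of DN-CLIM P6 replicates 3 and 5 or the 3 DN-CLIM P14 arrays was left out (limma adjusted p = 0.051 to 0.11), nor in WT skin without WT P6 replicate 2 or WT P14 replicate 2 or 3 (0.053 to 0.12). It was -0.25 in DN-CLIM skin with quantile normalization (limma adjusted p = 0.067) and -0.31 in WT skin with arrays centred on their median (limma adjusted p = 0.078). Cpt2 encodes the carnitine palmitoyltransferase of the inner mitochondrial membrane. At P6, Cpt2 gave signals of 1475, 1263, 1547, 1324 and 1476 in DN-CLIM skin, against 1436, 1467, 1634, 1348 and 1466 in WT skin. At P14, Cpt2 gave signals of 1506, 1709 and 1668 in DN-CLIM skin, against 1627, 1637 and 1555 in WT skin. At P23, Cpt2 gave signals of 1931, 1831 and 1587 in DN-CLIM skin, against 1814, 1677 and 1618 in WT skin. Neighbouring ages overlapped in both genotypes. The log2 change of Cpt2 between P6 and P14 was 0.20 (limma adjusted p = 0.11) in DN-CLIM skin and 0.13 (limma adjusted p = 0.34) in WT skin.

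Of the thermogenic genes Cidea was the 1 tested, and it rose between P14 and P23 in both genotypes. Cidea encodes a lipid droplet protein that marks brown fat and is also made by sebaceous glands. At P6, Cidea gave signals of 1102, 1091, 884, 686 and 917 in DN-CLIM skin, against 813, 1117, 816, 1012 and 863 in WT skin. At P14, Cidea gave signals of 692, 1477 and 1200.0 in DN-CLIM skin, against 1193, 639.8 and 794 in WT skin. At P23, Cidea gave signals of 1589, 2109.8 and 2320.2 in DN-CLIM skin, against 1254, 1559.5 and 1302 in WT skin. P6 and P14 overlapped, and at P23 each DN-CLIM array was above each WT array, with WT replicate 2 just below the lowest DN-CLIM array. Cidea changed by 0.89 (SE 0.24, limma adjusted p = 0.004) between P14 and P23 in DN-CLIM skin and by 0.69 (SE 0.24, limma adjusted p = 0.021) in WT skin. The WT rise did not pass without WT P14 replicate 2 or 3 or WT P23 replicate 2 (limma adjusted p = 0.061 to 0.13), or with arrays centred on their median (0.56, limma adjusted p = 0.063).

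Over the whole span, 20 of the 27 genes were higher and 1 lower at P23 than at P6 in DN-CLIM skin, and 17 were higher and 1 lower in WT skin (limma, adjusted p under 0.05). Among all tested probe sets 26.7% were higher and 28.2% lower in DN-CLIM skin, 54.8% in all, and 25.7% were higher and 28.3% lower in WT skin, 54% in all. The median log2 change of the 27 genes was 0.78 in DN-CLIM skin and 0.57 in WT skin. With each array centred on its median signal 15 were higher and 1 lower in each genotype, where the median of all tested probe sets was -0.15 in DN-CLIM skin and -0.13 in WT skin, and higher probe sets made up 35.5% of all DN-CLIM calls in place of 48.6%. Thrsp led with 3.66 (limma adjusted p = 9.6e-10) in DN-CLIM skin and 3.19 (limma adjusted p = 8.4e-09) in WT skin, followed by Cebpd with 2.67 (limma adjusted p = 9.8e-11) and 2.86 (limma adjusted p = 2.8e-11). The log2 change was above 1 in both genotypes for 5 further genes. Me1, Fasn, Mgll and Acadl had log2 changes of 1.60, 1.41, 1.40 and 1.12 in DN-CLIM skin and 1.38, 1.31, 1.28 and 1.35 in WT skin. Among the hormones Retn changed by 1.27 in DN-CLIM skin and 1.16 in WT skin, and Adipoq by 0.50 and 0.60. Apoe was the 1 gene of the 27 that was lower, with -0.92 (limma adjusted p = 1.5e-06) in DN-CLIM skin and -0.61 (limma adjusted p = 0.00025) in WT skin. With quantile normalization its value turned to 0.14 in DN-CLIM skin (limma adjusted p = 0.21) and 0.18 in WT skin (limma adjusted p = 0.092). Cebpa, Dgat1, Lep and Lipe did not pass in either genotype.

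No fat gene passed the test between DN-CLIM and WT skin at any age. In limma 0 of 27 passed at P6, at P14 and at P23, where 0.0322%, 0.0644% (0.0483% as higher in DN-CLIM skin) and 0.161% of all tested probe sets did, and 0 passed averaged over the 3 ages, where 0.177% did. At an unadjusted p under 0.05 there were 0, 2 and 2 genes at P6, P14 and P23, and 2 in the average. The medians of the 27 log2 differences were -0.02, 0.13 and 0.08 at P6, P14 and P23. At P14 the log2 difference was above 0 for 23 of the 27 genes (85.2%), against 49.0% of all tested probe sets. With each array centred on its median signal the genes' share was 63%, where the median of all tested probe sets was also lower, at -0.065. The 95% intervals of single genes reached from -0.91 to 0.54 at P6, from -0.65 to 1.46 at P14 and from -0.84 to 1.04 at P23, so at P14 and P23, with 3 arrays a group, a log2 difference of 1 in single genes could go undetected.

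At P14 the smallest p-values were those of Mgll, Lpl and Rbp4, all higher in DN-CLIM skin. The log2 difference of Mgll by its brighter probe set was 0.73 (95% interval 0.41 to 1.05, limma adjusted p = 0.081), with the arrays of the 2 genotypes apart at this age. It passed without DN-CLIM P14 replicate 3 (0.87, limma adjusted p = 0.022) and with arrays weighted by their quality (0.68, limma adjusted p = 0.032). The log2 difference of Lpl was 0.42 (95% interval 0.06 to 0.79, limma adjusted p = 0.72), also with the arrays apart. That of Rbp4 was 0.69 (95% interval -0.08 to 1.46, limma adjusted p = 0.82), where WT replicate 2 was far below the other arrays. At P6 the smallest p-values were those of Pnpla2 at 0.26 (95% interval -0.01 to 0.54, limma adjusted p = 0.63), Lep at -0.44 (95% interval -0.91 to 0.04, limma adjusted p = 0.65) and Srebf1 at 0.18 (95% interval -0.03 to 0.39, limma adjusted p = 0.66). The arrays overlapped for all 3, and for Lep WT replicates 3 to 5 were above all DN-CLIM arrays. At P23 they were those of Acly at 0.45 (95% interval 0.14 to 0.76, limma adjusted p = 0.6), Cidea at 0.54 (95% interval 0.03 to 1.04, limma adjusted p = 1.0) and Srebf1 at 0.26 (95% interval -0.01 to 0.53, limma adjusted p = 1.0). For Acly and Cidea the arrays of the 2 genotypes did not overlap, and for Srebf1 they did. How many of all tested probe sets have the 2 genotypes apart at P14 or P23 was not counted. Such a gap between 3 and 3 arrays is therefore a description and adds nothing to these p-values.

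The change with age was also compared between the genotypes directly. In limma 0 of 27 genes passed for P14 minus P6, P23 minus P14 and P23 minus P6, where 0.0161%, 0% and 0.0161% of all tested probe sets did, and 4, 1 and 2 had an unadjusted p under 0.05. Mgll had the smallest p-value in the first comparison and in the second. Its DN-CLIM change minus its WT change was 0.75 (95% interval 0.35 to 1.15, limma adjusted p = 0.58) for P14 minus P6 and -0.64 (95% interval -1.08 to -0.19, limma adjusted p = 0.68) for P23 minus P14. A gene that passed in 1 genotype and not in the other, such as Lep or Mgll between P6 and P14, is therefore not shown to differ between them.

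**Figure D3:**
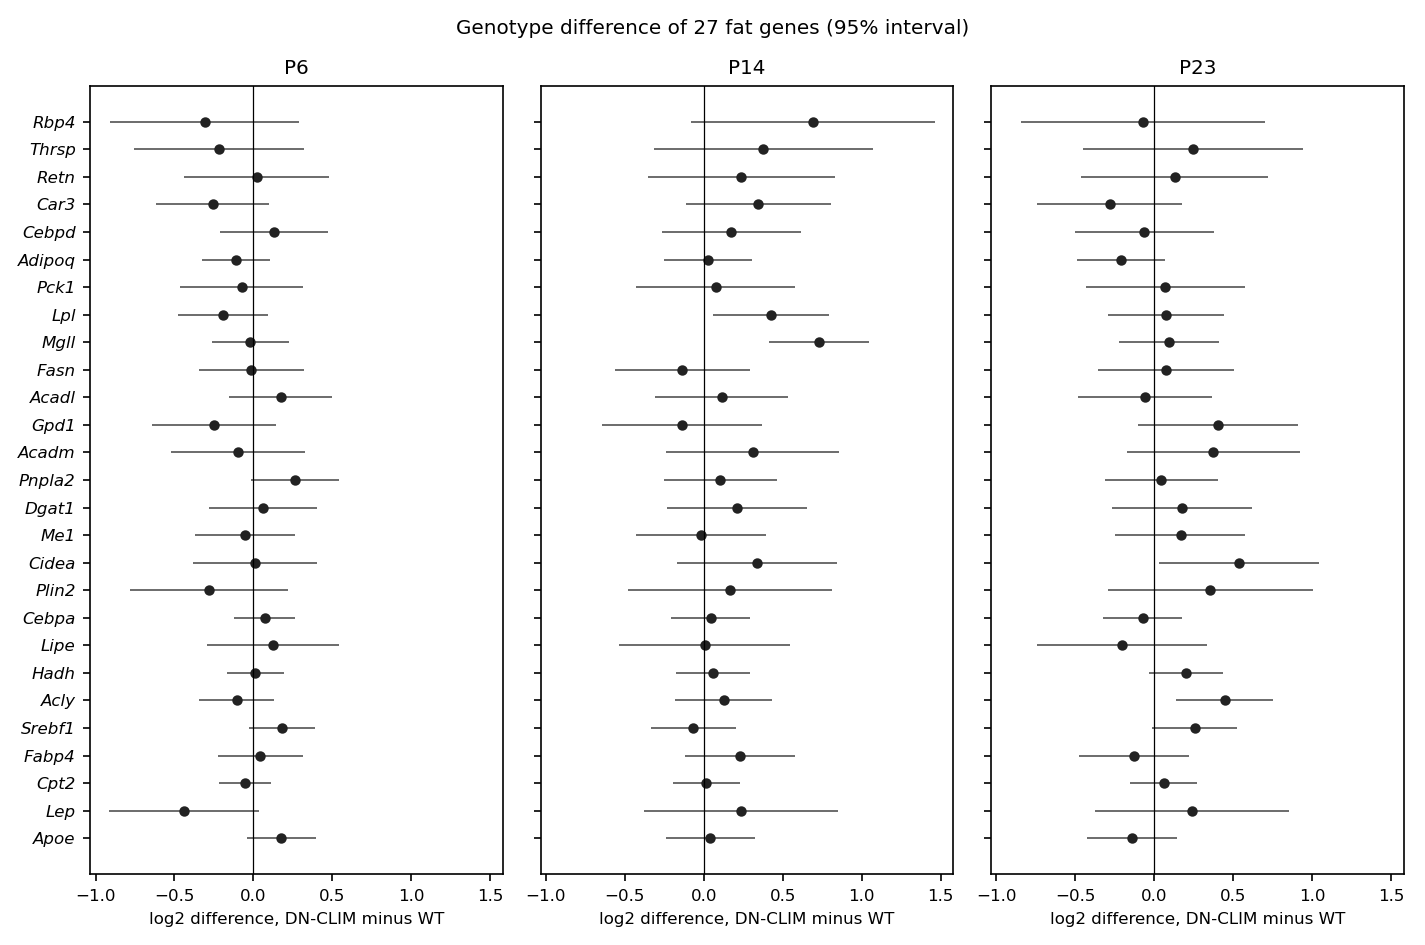
The plot of genotype differences gives the log2 difference, DN-CLIM minus WT, of each of the 27 tested genes at P6, P14 and P23 with its 95% interval. At P6 every interval includes 0 and at P14 and P23 all but 2 do, Mgll at P14 (0.73) is the point furthest from 0, and none of the 27 passed the threshold at any age.

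Further genes of fat cells came from 4 longer lists of adipocyte genes, regulators of adipogenesis, triglyceride enzymes and oxidation enzymes. Between P6 and P14 the shares of the tested genes that passed were 33.3%, 16.7%, 0% and 35.7% in DN-CLIM skin, against 26.8% of all tested probe sets. In WT skin they were 22.2%, 16.7%, 0% and 21.4%, against 20.8%, so none of the 4 lists was far above the background in that step. Between P14 and P23 they were 88.9%, 33.3%, 83.3% and 57.1% in DN-CLIM skin, against 54.3%, where the oxidation list was near the background and the regulators were below it. In WT skin they were 77.8%, 16.7%, 83.3% and 71.4%, against 54.2%. Of 20 further adipocyte genes 9 were tested, and between P14 and P23 6 rose and 2 fell in DN-CLIM skin, and 5 rose and 2 fell in WT skin. Cav1, which encodes caveolin-1 of the caveolae that fat cells have in plenty, changed by 2.41 (limma adjusted p = 1.7e-11) in DN-CLIM skin and 1.96 (limma adjusted p = 4.5e-10) in WT skin. Lpin1, a phosphatidate phosphatase of triglyceride synthesis, changed by 2.42 (limma adjusted p = 1.6e-08) in DN-CLIM skin and 2.22 (limma adjusted p = 5.3e-08) in WT skin. The lipid droplet genes Cidec and Plin4 were among the 3 with the smallest p in 1 genotype each, Cidec at 1.97 (limma adjusted p = 1.4e-06) in DN-CLIM skin and Plin4 at 1.90 (limma adjusted p = 1.2e-06) in WT skin. Between P6 and P14, 2 of the 9 fell in each genotype and 1 rose in DN-CLIM skin. Cav1 changed by -1.30 (limma adjusted p = 3.2e-07) in DN-CLIM skin and -1.32 (limma adjusted p = 2.7e-07) in WT skin over that step. Sncg changed by 0.55 (limma adjusted p = 0.012) and Cidec by -0.66 (limma adjusted p = 0.037) in DN-CLIM skin, and Plin4 by -0.76 (limma adjusted p = 0.017) in WT skin. The Cidec decrease did not pass without any 1 of DN-CLIM P6 replicates 1 to 3 or the 3 DN-CLIM P14 arrays (limma adjusted p = 0.067 to 0.14), nor the Plin4 decrease without WT P14 replicate 1 or 3 (0.053 and 0.11).

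Of 16 further regulators of adipogenesis 6 were tested, and Dlk1 moved most. Dlk1 encodes preadipocyte factor 1, an inhibitor of fat cell formation that is lost as the cells mature. It changed by -2.54 (limma adjusted p = 2e-10) between P6 and P14 in DN-CLIM skin and -2.33 (limma adjusted p = 7.8e-10) in WT skin, and by 0.60 (limma adjusted p = 0.0081) between P14 and P23 in DN-CLIM skin. That last rise did not pass without DN-CLIM P14 replicate 3 (0.43, limma adjusted p = 0.066). Cebpb, which encodes C/EBP beta, changed by -0.31 (limma adjusted p = 0.019) between P14 and P23 in DN-CLIM skin and -0.44 (limma adjusted p = 0.0016) in WT skin, and the DN-CLIM decrease did not pass without DN-CLIM P14 replicate 2 or DN-CLIM P23 replicate 1 (limma adjusted p = 0.094 and 0.083) or with quantile normalization (-0.17, limma adjusted p = 0.14). No other tested gene of this list passed in either step.

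Of 12 further triglyceride enzymes 6 were tested, and 4 rose and 1 fell between P14 and P23 in each genotype, while 0 passed between P6 and P14. Plpp3, a lipid phosphate phosphatase, changed by 1.73 (limma adjusted p = 4.8e-08) in DN-CLIM skin and 2.13 (limma adjusted p = 1.7e-09) in WT skin, and Tpi1, the triose phosphate isomerase of glycolysis, by 1.19 (limma adjusted p = 8.3e-07) and 0.93 (limma adjusted p = 2.1e-05). Lpin2, a relative of Lpin1, was the one that fell, with -1.05 (limma adjusted p = 2.7e-05) in DN-CLIM skin and -1.08 (limma adjusted p = 1.9e-05) in WT skin. Of 23 further oxidation enzymes 14 were tested, and 6 rose and 2 fell between P14 and P23 in DN-CLIM skin, and 7 rose and 3 fell in WT skin. Etfa, a subunit of the flavoprotein that takes electrons from the acyl-CoA dehydrogenases, changed by 1.13 (limma adjusted p = 1.1e-05) in DN-CLIM skin and 1.0 (limma adjusted p = 4.7e-05) in WT skin. Its partner subunit Etfb changed by 0.72 (limma adjusted p = 0.0011) in DN-CLIM skin. Cpt1a, the carnitine palmitoyltransferase of liver and many other tissues, changed by -1.28 (limma adjusted p = 2.1e-08) in DN-CLIM skin and -0.96 (limma adjusted p = 1.3e-06) in WT skin. Acaa2, the mitochondrial thiolase, changed by -0.48 (limma adjusted p = 0.00016) in WT skin, a value that was -0.065 with quantile normalization (limma adjusted p = 0.57). In the earlier step 3 fell and 2 rose in DN-CLIM skin, and 2 fell and 1 rose in WT skin. Echs1, the enoyl-CoA hydratase, changed by -0.86 (limma adjusted p = 0.0047) in DN-CLIM skin and -1.31 (limma adjusted p = 0.0001) in WT skin, the first of which missed the threshold in a fit on the 2 groups alone (limma adjusted p = 0.054), and Cpt1a by 0.48 (limma adjusted p = 0.003) and 0.47 (limma adjusted p = 0.0048). Acaa2 changed by -0.39 (limma adjusted p = 0.0014) in DN-CLIM skin and the isomerase gene Eci2 by -0.37 (limma adjusted p = 0.028) in WT skin, which did not pass without any 1 of WT P6 replicates 2 and 3 or WT P14 replicates 1 and 3 (limma adjusted p = 0.054 to 0.21).

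Genes of several other cell types of the skin also changed between these ages. Over all tested probe sets, 26.8% in DN-CLIM skin and 20.8% in WT skin passed between P6 and P14. Between P14 and P23 the shares were 54.3% and 54.2%. All 15 dermal fibroblast markers were tested. Of these 10 fell and 0 rose between P6 and P14 in DN-CLIM skin and 9 fell and 0 rose in WT skin, and between P14 and P23 13 rose and 0 fell in each. Their mean log2 signal per array ran from 11.83 to 12.21 in DN-CLIM skin and from 12.07 to 12.26 in WT skin at P6, from 11.17 to 11.62 and from 11.37 to 11.42 at P14, and from 12.44 to 12.58 and from 12.61 to 12.64 at P23. Of 13 macrophage markers 8 were tested, and 7 rose in DN-CLIM skin and 8 in WT skin between P14 and P23, after 1 and 4 fell between P6 and P14. Their mean log2 signal ran from 8.76 to 9.10 in DN-CLIM skin and from 8.73 to 9.09 in WT skin at P6, from 8.62 to 9.0 and from 8.45 to 8.83 at P14, and from 10.21 to 10.31 and from 10.31 to 10.45 at P23. Of 18 skeletal muscle markers 15 were tested, and 12 rose and 2 fell in DN-CLIM skin and 13 rose and 2 fell in WT skin between P14 and P23, after 5 rose and 3 fell, and 4 rose and 1 fell, between P6 and P14. Their mean log2 signal ran from 10.33 to 10.65 in DN-CLIM skin and from 10.35 to 10.56 in WT skin at P6, from 10.56 to 11.05 and from 10.77 to 10.996 at P14, and from 11.88 to 12.11 and from 12.01 to 12.28 at P23.

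The hair shaft markers ran against the fat genes. Of 14 listed, 11 were tested, 10 rose between P6 and P14 in each genotype, and all 11 fell between P14 and P23, with a median log2 change of -8.17 in DN-CLIM skin and -7.57 in WT skin. Of 11 endothelial markers 8 were tested, with 4 lower in DN-CLIM skin and 3 lower in WT skin at P14 than at P6, and 5 higher at P23 than at P14 in each. The endothelial share in the later step, 62.5% in each genotype, was near the 54.3% and 54.2% of all tested probe sets. Of 10 sebocyte markers 3 were tested, and 1 rose in DN-CLIM skin and 2 rose in WT skin between P14 and P23. Of 7 erythroid markers 3 were tested and 2 fell in each genotype in that step, and of 12 epidermal markers 9 were tested, with 7 higher and 1 lower in DN-CLIM skin and 6 higher and 1 lower in WT skin. With 3 tested genes each, the sebocyte and erythroid lists are too short to be set against the share of all probe sets. The part of these cell types in the changes of the fat genes was not tested.

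**Figure D4:**
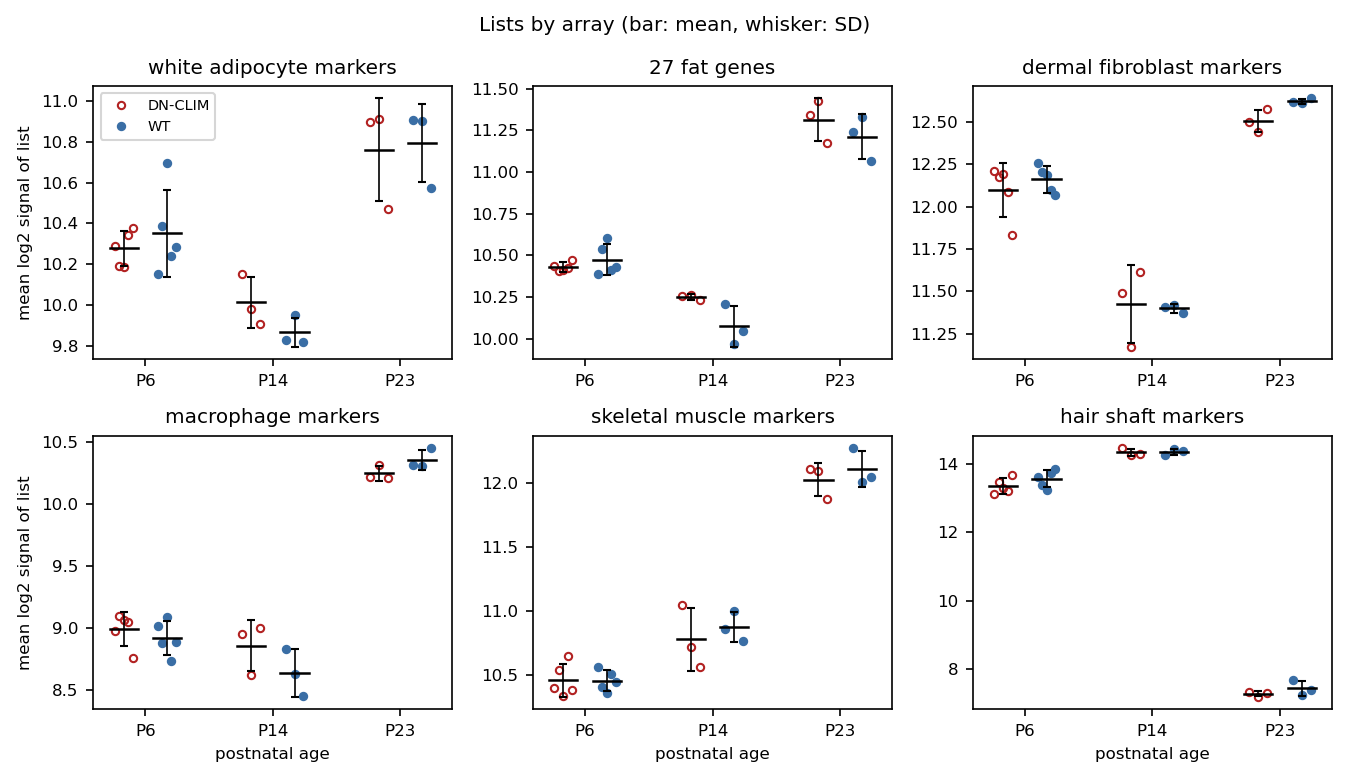
The plot of lists gives, for each array, the mean log2 signal over the tested genes of 6 lists at P6, P14 and P23, with open points for DN-CLIM and filled points for WT, a bar for the mean and whiskers for the SD. The fat genes, the dermal fibroblast and the macrophage lists are lowest at P14 and highest at P23, the muscle list rises through P23, and the hair shaft list drops to between 7.18 and 7.65 at P23.

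The 6 dim genes were read in a fit without the filter on signal, over 12422 probe sets, and nearly all of their P14 signals lie below that filter. Pparg, the gene of PPAR gamma, gave signals of 126, 235, 104, 158 and 148 in DN-CLIM skin, against 155, 170.5, 212, 232 and 176 in WT skin at P6. At P14, Pparg gave signals of 93.2, 113 and 85.0 in DN-CLIM skin, against 77.8, 43.5 and 58.4 in WT skin. At P23, Pparg gave signals of 277, 260.5 and 226 in DN-CLIM skin, against 249, 247 and 231 in WT skin. Its group means were lowest at P14 and highest at P23, with log2 changes of -0.62 (limma adjusted p = 0.087) in DN-CLIM skin and -1.68 (limma adjusted p = 5e-05) in WT skin between P6 and P14. Between P14 and P23 Pparg changed by 1.40 (limma adjusted p = 0.0003) in DN-CLIM skin and 2.06 (limma adjusted p = 2.7e-06) in WT skin. Agt encodes angiotensinogen, the precursor of angiotensin, which fat also makes. Agt changed by -2.68 (limma adjusted p = 4.9e-07) in DN-CLIM skin and -3.02 (limma adjusted p = 8.2e-08) in WT skin between P6 and P14, and by 2.32 (limma adjusted p = 2.8e-06) and 2.12 (limma adjusted p = 8.8e-06) between P14 and P23. Over the whole span from P6 to P23, Agt was lower in WT skin (-0.90, limma adjusted p = 0.012). In DN-CLIM skin its value was -0.36 (limma adjusted p = 0.33).

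Cd36, the fatty acid transporter gene, changed by 1.56 (limma adjusted p = 0.00068) in DN-CLIM skin and 1.91 (limma adjusted p = 7.7e-05) in WT skin between P14 and P23. Pcx, the gene of pyruvate carboxylase, changed by 3.51 (limma adjusted p = 2.6e-05) in DN-CLIM skin and 2.66 (limma adjusted p = 0.00055) in WT skin over the same step. Its P14 signals were only 37.0 to 48.2 in DN-CLIM skin and 47.2 to 89.1 in WT skin, so the size of this rise is uncertain. A second dim probe set of Pcx rose less. Its mean log2 signal was 7.21 in DN-CLIM skin and 7.26 in WT skin at P14, and 7.99 and 7.75 at P23. Ucp1 encodes the uncoupling protein of brown fat. At P14, Ucp1 gave signals of 232, 7.01 and 9.32 in DN-CLIM skin, against 8.75, 14.4 and 5.90 in WT skin. At P23, Ucp1 gave signals of 1285, 825 and 313 in DN-CLIM skin, against 187, 437 and 54.2 in WT skin. DN-CLIM P14 replicate 1 stood far above the other P14 arrays, and the P23 arrays spread widely in both genotypes. Most of the P14 signals lie near the bottom of the scale, so no fold is given. A second dim probe set of Ucp1 gave 10.4 to 86.4 in DN-CLIM skin and 65.0 to 85.8 in WT skin at P14. At P23 that probe set gave 69.6 to 151 and 38.5 to 83.4. Acadvl, the very long-chain acyl-CoA dehydrogenase gene, read between 1.46 and 46.2 on all arrays. These signals lie far below the filter of 203.2, and no fold is given for it either.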

How the data were processed

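The data were MAS5 signals from 22 single-colour Affymetrix arrays of whole mouse back skin, per the labels. The deposited intensity values are linear MAS5 signals, per the submitters' processing notes. The sources used here do not give the MAS5 version. The equal trimmed means (500.25 to 500.34) show that the authors scaled every array to 1 target, so a signal is relative to the rest of its array, and precision is limited by the number of arrays.

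Of 12488 probe sets 66 were controls. The platform annotation paired 10855 with 1 gene, 396 with several and 1237 with none, and only the first were named. Signals were taken to log2, and the 6211 probe sets with a mean log2 signal of at least 7.667 (signal 203.2) were tested with limma 3.58.1 in R 4.3.3. The fit had 6 group means over all 22 arrays and a trend in the variance, and p-values were adjusted by Benjamini-Hochberg over all 6211, with a threshold of 0.05. The scripts were tested on simulated data. A gene is given by its brightest probe set.

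Alternatives were no filter, quantile normalization, centring on the array median, 50 added to each signal, array weights, fits on the compared arrays, the replicate number as a block, P6 arrays 1 to 3 only, a term for P6 arrays 4 and 5, any probe set of a gene, and leaving out each array.

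The members and lists were chosen with earlier results of these data known, and so was the split of the P6 arrays. Values per array are given for up to 4 genes of each role with the smallest p over the age comparisons and for up to 3 with the smallest p in each genotype comparison, and up to 3 further genes a list are named by smallest p in each comparison.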

Additional observations from a re-analysis of the deposited data

Results flagged for a closer look

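In groups of 5 arrays, 54 combinations of a fat gene and a P6 group were examined for an array far from the other 4 by Dixon's test on log2 signals, and 2 stood out, both on DN-CLIM P6 replicate 5. Acadm gave a signal of 853 there, where the other DN-CLIM arrays of P6 gave 1972 to 2515, a gap of 0.775 of the whole range on the log2 scale. Plin2 gave a signal of 851 there, where the others gave 2263 to 2708, a gap of 0.845 of the whole range on the log2 scale. Chance marks about 1 in 20 groups. That array also had the lowest correlation with its group (0.923).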

How the results depend on the processing

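Of 115 changes past the threshold among the fat genes, 83 stayed past it with the same sign in every alternative run and 87 with any 1 array left out (limma). With 1 array left out, the count past the threshold ran from 10 to 17 in DN-CLIM skin and 10 to 15 in WT skin for P14 minus P6, from 22 to 23 and 20 to 22 for P23 minus P14, and from 18 to 22 and 13 to 19 for P23 minus P6. The low of 10 in DN-CLIM skin came without DN-CLIM P14 replicate 2. Between the genotypes the count was 0 throughout at P6, at P23, in the average and in the 3 comparisons of age changes, and 0 to 1 at P14. The 1 was Mgll, without DN-CLIM P14 replicate 3, and the count at P14 was also 1 with array weights. Apoe, P23 minus P6, reversed with quantile normalization, to 0.14 in DN-CLIM skin (0.21 as limma's adjusted p) and 0.18 in WT skin (0.092). The cause was not tested. Without the filter the counts were 17, 28 and 25 in DN-CLIM skin and 17, 27 and 20 in WT skin for the 3 age comparisons, over 33 genes.

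The replicate numbers were not used as pairs in the main fit. The deviations of arrays with the same number in both genotypes had correlations of -0.047 to 0.249 over 11 pairs, of which 4 were over 0.1. For arrays of the same number at different ages of a genotype they were -0.089 to 0.099 over 18 pairs. Arrays of different numbers were not set beside them, so these values cannot decide whether the numbers pair the arrays. With the replicate number as a block the counts were 15, 23 and 21 in DN-CLIM skin, 15, 22 and 16 in WT skin, and 0 in each genotype comparison. Precision rests on 3 arrays a group at P14 and P23, and 6 genes were too dim for the test.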
